A study of Homo sapiens with 12 samples.

Results

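The genes described here encode parts of the contractile unit of heart muscle, together with sarcolipin, a small protein that regulates the calcium pump. The members were the 10 genes MYL3, MYL4, MYL7, TNNT2, TNNI1, TNNI3, TNNC1, ACTC1, ACTN2 and SLN, found by the gene symbol that the array annotation gives each probe. A probe carried the symbol of 9 of them, out of 18665 genes named on the array. Those 9 genes had 11 probes, and 8 probes of 7 genes passed the detection filter. No probe carried the symbol TNNT2 (cardiac troponin T) in the annotation used, so that gene was not analysed here.

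Transcripts were measured on 12 Illumina bead arrays, 4 per group, in cells of SNUhES3, a line of human embryonic stem cells (ESCs) kept in culture. The first group was undifferentiated ESCs, grown on growth-arrested mouse STO feeder cells in medium with serum replacement and basic FGF. The other 2 groups were embryoid bodies (EBs), which are floating balls of differentiating cells, kept for 1 or 2 weeks in that medium without basic FGF. All groups came from 1 line, with no factor that directs cells to heart muscle named in the labels, and the labels do not say whether the 4 arrays of a group held separate cultures. The p-values therefore measure the spread between arrays, which may be technical. In RNA from whole EBs, fewer cells of a type and less RNA per cell cannot be told apart.

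In a muscle sarcomere, myosin heads on thick filaments pull on actin filaments. Troponin C binds calcium on the actin filament, troponin I holds the filament off until calcium comes, and troponin T ties the complex to tropomyosin. Myosin light chains sit on the neck of each myosin head, alpha-actinin anchors actin at the Z-disc, and calcium is returned to its store by the pump SERCA, which sarcolipin slows. In the developing heart the atrial light chains and cardiac actin appear early, and troponin I passes from its slow skeletal form, TNNI1, to its cardiac form, TNNI3.

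Levels are given as normalized log2 values, in which 1 unit is 2-fold, and levels of different probes are not set against each other. A probe was detected on an array at a detection p-value under 0.01, and was tested if detected on at least 4 of the 12 arrays. A probe was called at a limma adjusted p under 0.05 and a change of at least 2-fold. Mean intensity per array ran between 718 and 1090 and the detected probes between 14045 and 15905, with the second 2-week array lowest on both. The lowest level of any detected probe lay between 6.67 and 7.28 on the log2 scale, and folds against a group with no detection are given as at least that large from this floor.

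SLN, the atrial light chains MYL4 and MYL7, and the cardiac actin gene ACTC1 were far higher in EBs than in ESCs at 1 week and stayed high at 2 weeks. TNNI3 went the opposite way and was more than 3-fold lower in EBs. TNNC1 was modestly higher, ACTN2 was not called, and the probe for TNNI1 was not detected. Between 1 and 2 weeks of EB culture none of the tested probes was called.

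**Figure D1:**
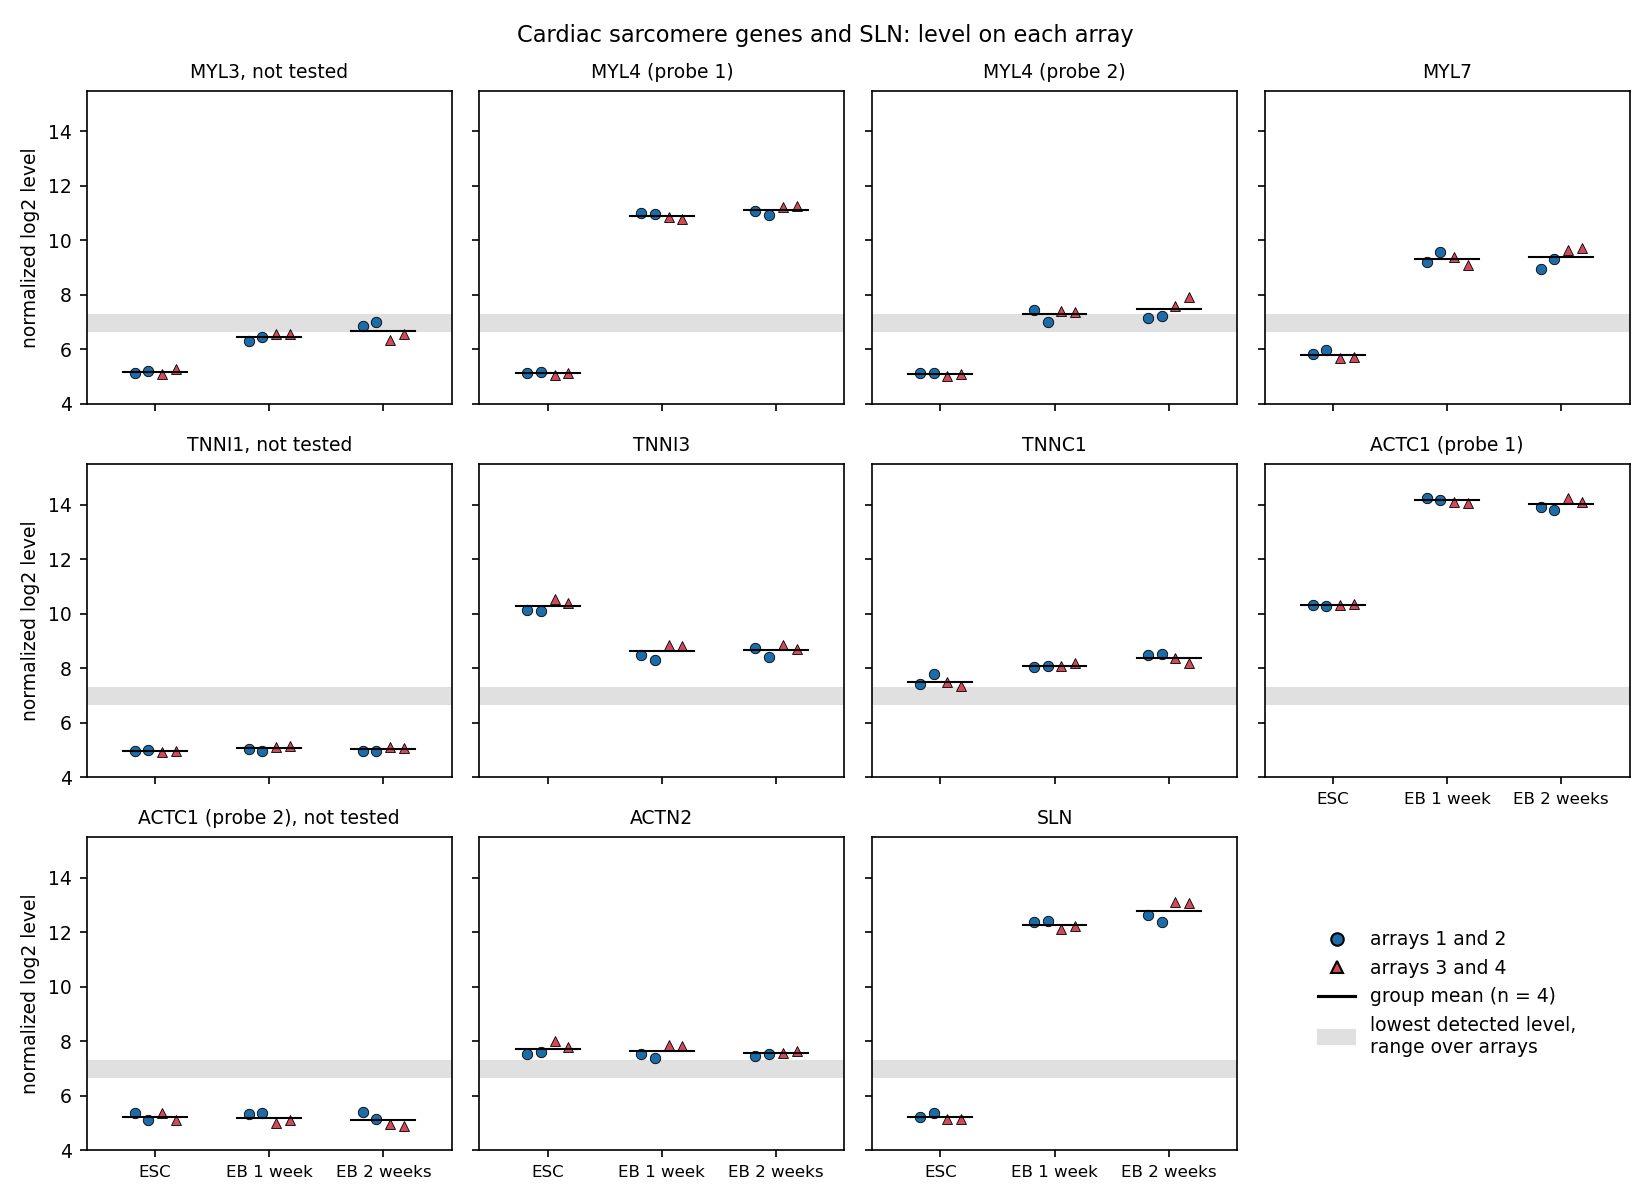
Normalized log2 level of each probe of the 9 genes on each of the 12 arrays, with ESC, EB 1 week and EB 2 weeks from left to right. Circles are arrays 1 and 2 of a group, triangles are arrays 3 and 4, the line is the mean of 4 arrays, and the grey band spans the lowest detected level of the arrays (6.67 to 7.28). SLN, MYL4, MYL7 and the first ACTC1 probe lie well above their ESC arrays in both EB groups, and TNNI3 lies below.

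Promoter letters were available for 6 of the 10 genes, as 9 windows running from 250 bases before to 50 bases after an annotated start in RefSeq on GRCh38.p14. They are shown for 2 genes that rose, ACTC1 and MYL7, and for the gene that fell, TNNI3. Capitals mark a CArG box, the serum response factor motif, in ACTC1 and MYL7, and in TNNI3 they mark GATAA, the core GATA motif, read on the opposite strand as TTATC. The windows are ACTC1 at chr15:34795500-34795799, MYL7 at chr7:44141283-44141582 and TNNI3 at chr19:55157683-55157982, all on the minus strand and written 5′ to 3′ along the gene.
ACTC1: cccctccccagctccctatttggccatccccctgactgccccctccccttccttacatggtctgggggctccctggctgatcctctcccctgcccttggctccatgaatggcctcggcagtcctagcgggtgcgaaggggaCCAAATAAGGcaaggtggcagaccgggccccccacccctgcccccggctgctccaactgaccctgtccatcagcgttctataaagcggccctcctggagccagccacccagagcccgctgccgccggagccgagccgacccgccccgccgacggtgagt
MYL7: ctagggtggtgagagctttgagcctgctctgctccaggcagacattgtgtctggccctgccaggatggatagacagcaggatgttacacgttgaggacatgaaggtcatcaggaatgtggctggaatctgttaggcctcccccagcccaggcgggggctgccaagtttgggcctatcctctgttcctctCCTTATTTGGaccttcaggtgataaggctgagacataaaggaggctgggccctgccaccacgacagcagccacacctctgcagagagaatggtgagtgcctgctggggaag
TNNI3: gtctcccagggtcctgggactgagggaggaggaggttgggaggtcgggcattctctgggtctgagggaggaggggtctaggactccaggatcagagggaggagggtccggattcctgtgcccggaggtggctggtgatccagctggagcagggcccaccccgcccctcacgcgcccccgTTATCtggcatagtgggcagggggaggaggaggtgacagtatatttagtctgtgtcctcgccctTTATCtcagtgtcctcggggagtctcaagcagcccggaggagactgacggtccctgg

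The CArG box in ACTC1 reads CCAAATAAGG with its first base at -109 from the start, and the same window holds TATAAA at -31. In MYL7 the box reads CCTTATTTGG at -61, with GATAA at -41. TNNI3 holds TTATC at -71 and -7 and no CArG box. GATAA, on either strand, also lay in windows of MYL3, MYL7 and TNNT2. Among all 35116 promoter windows of that size, searched on both strands, 1.29% held a CArG box, 22.7% GATAA and 11.5% TATAAA. The CArG box lay in windows of 2 of the 6 genes, and the MEF2 box, found in 2.99% of all windows, lay in none. The other 2 ACTC1 windows, at other annotated starts, held no CArG box. These matches describe the letters only.

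Among the light chains, MYL4 encodes the atrial and embryonic essential chain. Its first probe read 5.15, 5.18, 5.06 and 5.15 in ESCs, 10.99, 10.96, 10.87 and 10.80 in 1-week EBs, and 11.07, 10.92, 11.24 and 11.26 in 2-week EBs. Every EB array lay above every ESC array, where the probe was never detected. The difference was 5.77 ± 0.08 log2 at 1 week (SE, limma adjusted p = 1.88e-14) and 5.99 ± 0.08 at 2 weeks (adjusted p = 8.4e-15). Against the floor this is at least 14.1-fold higher in 1-week EBs and at least 16.4-fold higher in 2-week EBs.

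The second MYL4 probe went the same way with smaller values. It averaged 7.30 ± 0.20 in 1-week EBs and 7.48 ± 0.37 in 2-week EBs, against 5.09 ± 0.05 in ESCs (SD, n = 4 arrays each). It was detected on 4 arrays of the 1-week EBs, on 3 of the 2-week EBs and on no ESC array. The limma differences were 2.20 ± 0.15 log2 (adjusted p = 8.66e-08) and 2.38 ± 0.15 (adjusted p = 2.31e-08), or at least 1.15-fold and at least 1.31-fold higher in EBs.

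MYL7 encodes the regulatory light chain of the atrium. It read 5.82, 5.99, 5.70 and 5.71 in ESCs, 9.21, 9.57, 9.39 and 9.10 in 1-week EBs, and 8.94, 9.30, 9.66 and 9.73 in 2-week EBs. Again the EB arrays lay above all ESC arrays, none of which detected the probe. MYL7 was 3.51 ± 0.16 log2 higher at 1 week (limma adjusted p = 9.93e-10) and 3.60 ± 0.16 higher at 2 weeks (adjusted p = 4.86e-10), at least 4.69-fold and at least 5.00-fold.

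MYL3 encodes the ventricular and slow skeletal essential chain. Its probe averaged 6.47 ± 0.12 in 1-week EBs and 6.69 ± 0.29 in 2-week EBs, against 5.17 ± 0.08 in ESCs (SD, n = 4 arrays each). The EB arrays did not overlap the ESC arrays, but the probe passed the detection limit on only 1 array, of 2-week EBs, and so was not tested. Its detection p-values ran from 0.0119 to 0.0171 in 1-week EBs, from 0.00922 to 0.0158 in 2-week EBs and from 0.169 to 0.401 in ESCs. Under the filters that keep it, its limma adjusted p was at most 4.83e-06 at 1 week and at most 6.1e-07 at 2 weeks, and no fold is given for a level under the floor.

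ACTC1 encodes cardiac alpha-actin, the thin filament actin of the heart. Its first probe read 10.30, 10.29, 10.30 and 10.34 in ESCs, 14.24, 14.18, 14.11 and 14.06 in 1-week EBs, and 13.90, 13.80, 14.23 and 14.08 in 2-week EBs. Unlike the light chains it was detected on every ESC array, so its fold is measured on both sides. It was 14.3-fold higher at 1 week (3.84 ± 0.09 log2, limma adjusted p = 9.46e-13) and 12.9-fold higher at 2 weeks (3.69 ± 0.09, adjusted p = 9.69e-13). The second ACTC1 probe was undetected on all 12 arrays, with means of 5.19 in 1-week EBs, 5.10 in 2-week EBs and 5.23 in ESCs. It gave no reading of the gene in any group, so the rise rests on the first probe alone.

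ACTN2 encodes the alpha-actinin of the Z-disc in heart and skeletal muscle. It averaged 7.64 ± 0.22 in 1-week EBs and 7.55 ± 0.07 in 2-week EBs, against 7.73 ± 0.21 in ESCs (SD, n = 4 arrays each). The groups overlapped, and the probe was detected on all 12 arrays, close to the floor. The limma difference was -0.08 log2 at 1 week (95% interval -0.34 to 0.17, adjusted p = 0.589) and -0.18 at 2 weeks (-0.43 to 0.08, adjusted p = 0.219). Changes of 2-fold on this scale lie outside both intervals, but the processing shrinks differences of dim probes such as this one.

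Of the troponins, TNNI3, the cardiac inhibitory subunit, was the one member called lower. It read 10.14, 10.11, 10.53 and 10.39 in ESCs, 8.47, 8.31, 8.85 and 8.82 in 1-week EBs, and 8.75, 8.39, 8.84 and 8.70 in 2-week EBs. Every EB array lay below every ESC array, and the probe was detected on all 12 arrays. TNNI3 was 3.20-fold lower at 1 week (-1.68 ± 0.14 log2, limma adjusted p = 6.02e-07) and 3.08-fold lower at 2 weeks (-1.62 ± 0.14, adjusted p = 4.94e-07). In both ESCs and 1-week EBs, arrays 1 and 2 read below arrays 3 and 4.

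TNNI3 lies beside TNNT1, the slow skeletal troponin T gene, in the RefSeq gene table. TNNT1 was lower by -0.79 log2 at 1 week and -0.28 at 2 weeks (limma adjusted p = 1.79e-05 and 0.0218), under 2-fold in both. TNNI1, the slow skeletal inhibitory subunit that precedes TNNI3 in the fetal heart, was undetected on all 12 arrays, with means of 5.06 in 1-week EBs, 5.02 in 2-week EBs and 4.95 in ESCs.

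TNNC1 encodes the calcium-binding troponin of heart and slow muscle. It read 7.42, 7.77, 7.50 and 7.33 in ESCs, 8.04, 8.09, 8.06 and 8.18 in 1-week EBs, and 8.46, 8.50, 8.38 and 8.20 in 2-week EBs. The 3 groups did not overlap and stood in the order ESC, 1 week, 2 weeks. It was 1.50-fold higher at 1 week (0.58 ± 0.10 log2, limma adjusted p = 0.000297) and 1.84-fold higher at 2 weeks (0.88 ± 0.10, adjusted p = 5.24e-06), and so passed the adjusted p but not the 2-fold minimum. In the series matrix, a second table of the authors' values, the 1-week difference was 0.39 with a limma adjusted p of 0.117. Without the second 2-week array of that table it was 0.39 with a limma adjusted p of 0.0193. That setting was added after seeing the data.

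SLN encodes sarcolipin, the small membrane protein bound to the calcium pump. It read 5.23, 5.38, 5.13 and 5.15 in ESCs, 12.36, 12.40, 12.11 and 12.23 in 1-week EBs, and 12.64, 12.37, 13.09 and 13.06 in 2-week EBs. The probe was below detection on the ESC arrays, and no EB array came near them. SLN was 7.05 ± 0.14 log2 higher at 1 week (limma adjusted p = 2.37e-13) and 7.57 ± 0.14 higher at 2 weeks (adjusted p = 8.5e-14), which is at least 36.4-fold and at least 52.0-fold.

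**Figure D2:**
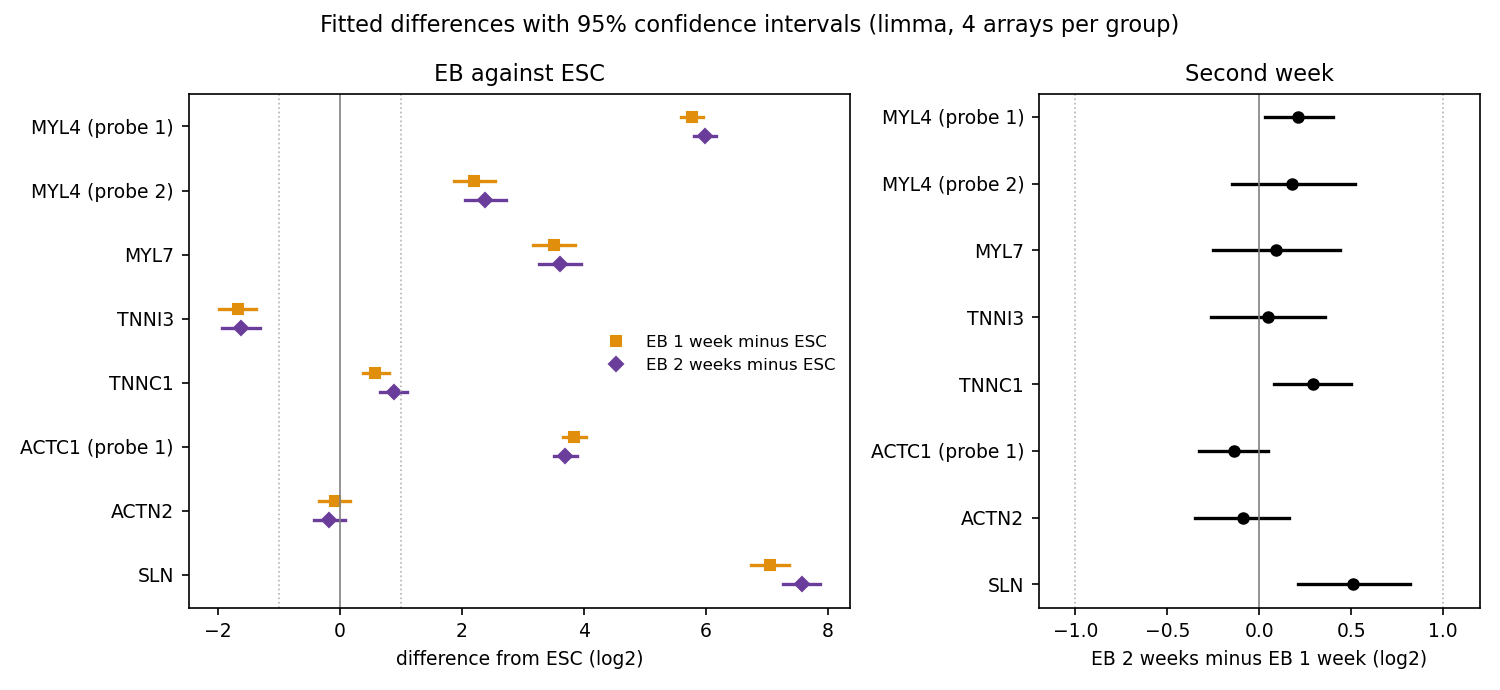
Fitted log2 differences of the 8 tested probes with 95% confidence intervals, EBs minus ESCs on the left for 1 week (squares) and 2 weeks (diamonds), and 2-week minus 1-week EBs on the right. Dotted lines mark 2-fold, and MYL4, MYL7 and SLN are set against ESC levels that were not detected. SLN is at 7.05 and 7.57 and TNNI3 at -1.68 and -1.62 on the left, and all 8 points on the right lie within 2-fold.

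In the 1-week comparison 5 of the 8 tested probes, from 4 genes, were called higher and 1 lower, where 8.85% of all tested probes were called, 5.48% higher and 3.37% lower. At 2 weeks the counts of members were the same, where 14.1% of all tested probes were called, 7.52% higher and 6.54% lower. At an adjusted p under 0.05 alone 7 of the 8 passed in each comparison, against 49.0% of all tested probes at 1 week and 59.8% at 2 weeks. Groups that did not overlap were found for 7 of the 8 in each, against 46.0% and 53.2% of all tested probes. Of the 5 higher probes, those of MYL4, MYL7 and SLN were undetected on all ESC arrays and entered the test through EB arrays, so they had to be higher and the counts carry no weight of their own. No median over the 8 is given, since it would rest on those undetected ESC levels. Both comparisons use the same 4 ESC arrays.

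The 4 probes detected on every array make a smaller set that the filter did not shape in this way. Among them ACTC1 was higher, TNNI3 was lower, and TNNC1 and ACTN2 were not called, in both comparisons. Separated by set of arrays, TNNI3 differed from ESCs by -1.73 and -1.62 log2 at 1 week and by -1.55 and -1.69 at 2 weeks on arrays 1 and 2 and on arrays 3 and 4. ACTC1 differed in the same order by 3.91 and 3.76 at 1 week and by 3.56 and 3.83 at 2 weeks, and SLN by 7.08 and 7.03 and then by 7.20 and 7.93.

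The second week of EB culture brought smaller differences, and 0 of the 8 tested probes were called by limma, where 1.28% of all tested probes were (0.791% higher and 0.490% lower). At an unadjusted p under 0.05 there were 3, the first MYL4 probe, TNNC1 and SLN, and no other tool was run. At an adjusted p under 0.05 alone there were 2, TNNC1 and SLN, where 22.8% of all tested probes passed. Only TNNC1 had groups that did not overlap, as did 30.0% of all tested probes.

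SLN was 0.51 log2 higher in 2-week than in 1-week EBs (95% interval 0.21 to 0.82, limma adjusted p = 0.0202), with overlapping groups. TNNC1 was 0.29 higher (0.08 to 0.50, adjusted p = 0.0476). The first MYL4 probe differed by 0.21 (0.03 to 0.40, adjusted p = 0.0846). ACTC1 differed by -0.14 (-0.33 to 0.05, adjusted p = 0.282). The intervals were -0.25 to 0.44 for MYL7, -0.26 to 0.36 for TNNI3 and -0.35 to 0.16 for ACTN2.

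Arrays 1 and 2 were closer to each other than to arrays 3 and 4 in ESCs and in 1-week EBs, and arrays 3 and 4 formed a close set in all groups. The correlation over tested probes within these sets was 0.9966 to 0.9978 in ESCs and 1-week EBs, against 0.9827 to 0.9916 across them. In 2-week EBs it was 0.9917 for arrays 1 and 2, 0.9975 for arrays 3 and 4, and 0.9896 to 0.9944 across. The labels name no batch, and what the sets stand for was not tested.

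The second-week difference of SLN was 0.12 log2 on arrays 1 and 2 (limma adjusted p = 0.484) and 0.90 on arrays 3 and 4 (adjusted p = 4.73e-05). MYL7 differed by -0.27 and 0.45 on the same sets, ACTC1 by -0.35 and 0.07, and the first MYL4 probe by 0.02 and 0.41. TNNC1 was higher in both, by 0.42 and 0.17. With each set averaged to 1 value the SLN adjusted p was 0.244, with the sets as a random block it was 0.0785, and with the replicate number as a block it was 0.0448. It also missed 0.05 without the third 1-week array (0.0606), without the third 2-week array (0.0634) and without the fourth (0.0639). The second-week adjusted p of TNNC1 was 0.0201 to 0.109 with 1 array left out, and stayed under 0.05 only without the second or the fourth ESC array or the fourth 2-week array.

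**Figure D3:**
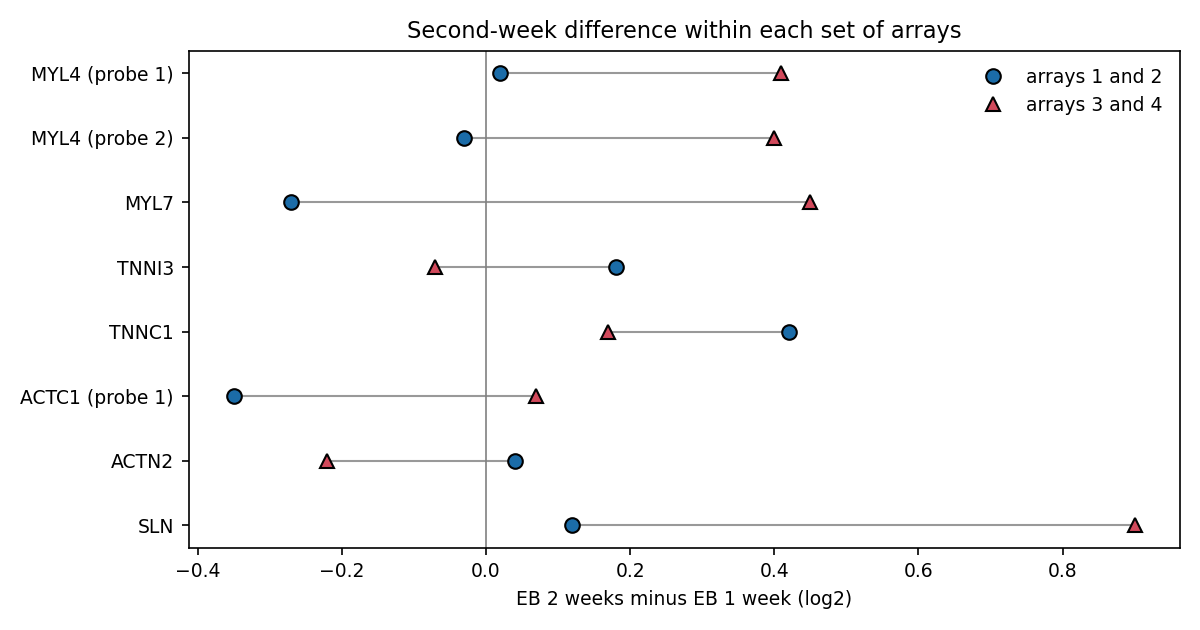
Difference of 2-week minus 1-week EBs (log2) of the 8 tested probes, computed within arrays 1 and 2 (circles) and within arrays 3 and 4 (triangles). SLN is at 0.12 and 0.90 and MYL7 at -0.27 and 0.45, while TNNC1 (0.42 and 0.17) lies above 0 in both sets.

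Most of the other sarcomere genes measured were not called. Of 31 other sarcomere genes listed, 27 had a probe and 8 passed the filter, and 1 of the 8 was called higher at 1 week and at 2 weeks. That gene was TMOD1, tropomodulin, which caps the pointed end of the actin filament. It averaged 7.42 ± 0.13 in 1-week EBs and 7.74 ± 0.35 in 2-week EBs, against 5.76 ± 0.12 in ESCs, where it was undetected (at least 1.26-fold and at least 1.57-fold higher, limma adjusted p = 6.6e-07 and 6.84e-08). TMOD1 passed the filter through EB arrays, so it had to be higher. The list's median difference was -0.04 log2 at 1 week and 0.01 at 2 weeks. For this list and those below, 5.48% of all tested probes were called higher and 3.37% lower at 1 week. At 2 weeks these shares were 7.52% and 6.54%.

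Defining markers of working heart muscle were mostly at background. MYH7, the slow and ventricular heavy chain, MYL2, the ventricular regulatory light chain, and the giant protein gene TTN were undetected on all 12 arrays by every probe named for them. MYH6, the heavy chain of the atrium, was detected on 2 arrays of 1-week EBs, 1 of 2-week EBs and 0 of ESCs, with mean intensities of 182, 177 and 106, and was not tested. Of the 49 probes for other sarcomere genes, 31 were undetected on every array.

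Among 23 calcium-handling genes listed, 22 had a probe and 8 passed the filter. None was called at 1 week, and at 2 weeks 0 were higher and 1 was lower. ATP2A2, the gene for SERCA2, the pump that sarcolipin slows in heart, was detected on all arrays by 3 probes, whose 2-week differences were 0.64, 0.45 and 0.29 log2 (limma adjusted p = 1.38e-05, 0.000127 and 0.0651), all under 2-fold. PLN, phospholamban, the other small regulator of that pump, and RYR2, the calcium release channel, were undetected on all 12 arrays. The gene that fell was ATP2A3, a pump gene of non-muscle cells, at -1.35 log2 at 2 weeks (adjusted p = 3.64e-07), undetected in 2-week EBs and so at least 1.49-fold lower.

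Of 24 transcription factors of heart development listed, 23 had a probe and 15 passed the filter. In EBs 11 were higher and 0 lower at 1 week, where 5.48% of all tested probes were called higher and 3.37% lower. At 2 weeks 11 were higher and 1 lower, where these shares were 7.52% and 6.54%. Of those 11, GATA6, HAND2, HOPX, MEF2C, MESP1, TBX2 and TBX3 were undetected in ESCs and so had to be higher if they passed. GATA6, MEF2C and TBX2 were detected on only 1, 1 and 2 of the 1-week arrays.

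HAND1, a factor of the early left ventricle and also of extraembryonic mesoderm and trophoblast, averaged 14.80 ± 0.11 in 1-week EBs and 14.89 ± 0.02 in 2-week EBs, against 7.91 ± 0.11 in ESCs. It was detected in all groups and was 118-fold higher at 1 week and 126-fold at 2 weeks (limma adjusted p = 2.12e-15 and 1.19e-15). ISL1, a marker of second heart field progenitors, was 8.30-fold and 10.9-fold higher (adjusted p = 2.07e-07 and 3.55e-08). HOPX was at least 3.86-fold and at least 6.08-fold higher, and HAND2 at least 1.45-fold and at least 2.88-fold, each by its brightest probe. The other probes of HOPX and HAND2 were undetected on every array. They gave no reading of these genes in any group, so both rises rest on the brightest probe alone.

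NKX2-5, which marks committed heart progenitors, was detected on all arrays and averaged 7.42 ± 0.16 in 1-week EBs and 7.64 ± 0.21 in 2-week EBs, against 7.53 ± 0.12 in ESCs. Its limma adjusted p was 0.414 at 1 week and 0.415 at 2 weeks. HEY2, a factor of ventricular muscle, was the gene called lower at 2 weeks, by -1.01 log2 (adjusted p = 7.02e-09).

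**Figure D4:**
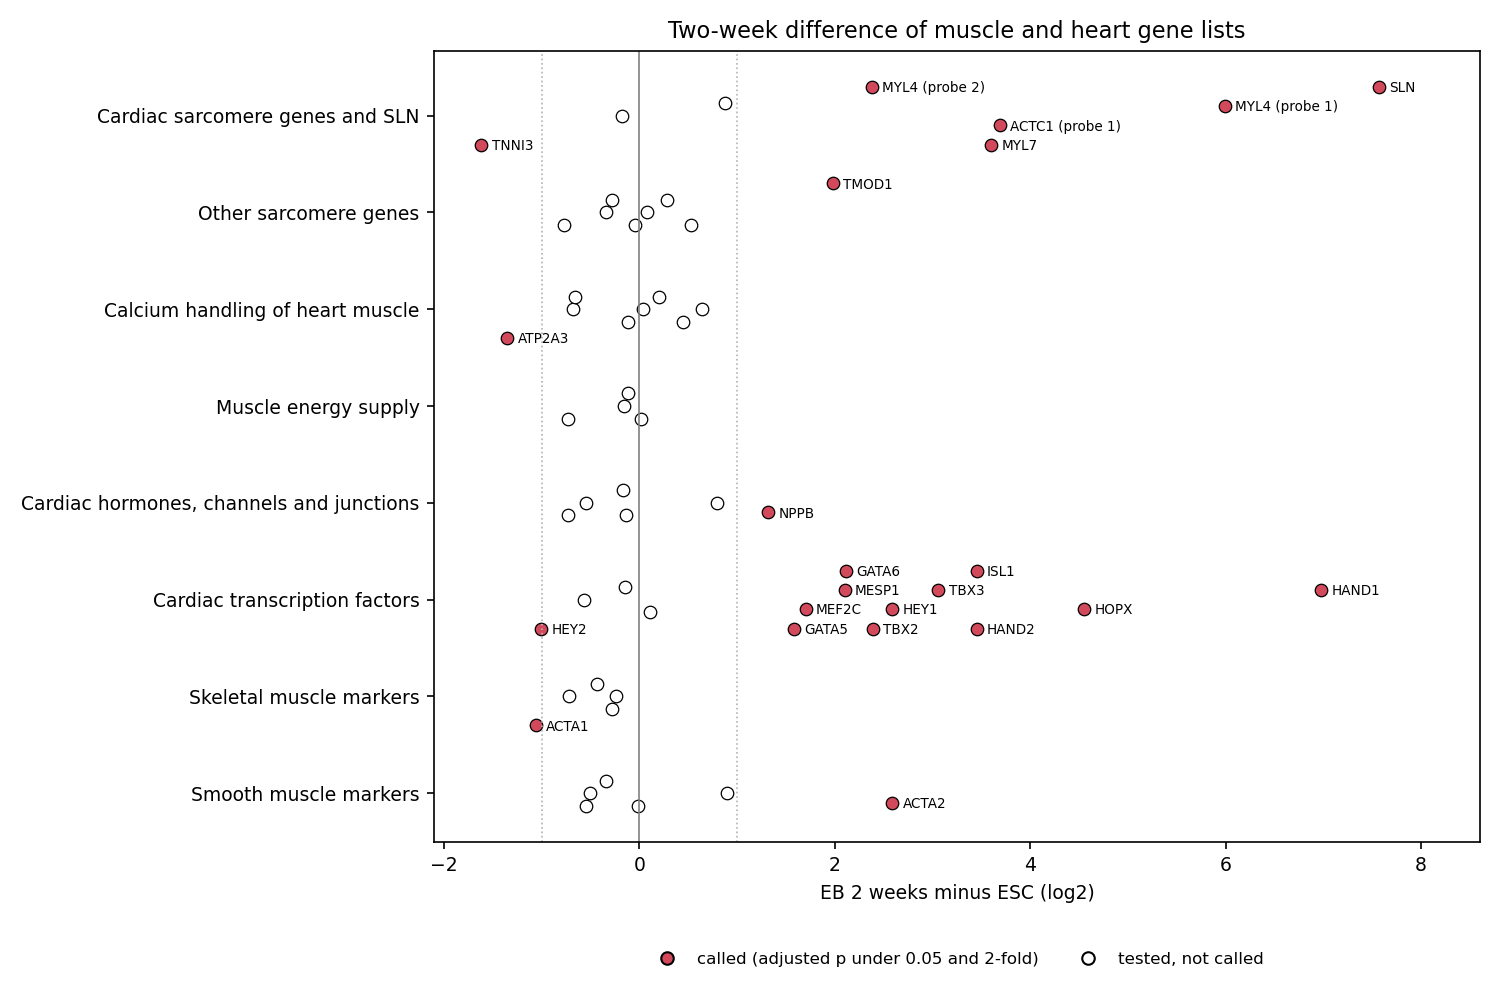
Log2 difference of 2-week EBs minus ESCs for the tested sarcomere and sarcolipin probes (top row) and for 7 lists of muscle and heart genes, 1 probe per gene. Filled points were called and are named, open points were tested and not called, dotted lines mark 2-fold, and height within a row has no meaning. Called genes other than the top row are mainly transcription factors, with HAND1 at 6.98. Several of these factors were undetected in ESCs and so had to be higher.

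Of the hormone, channel and junction genes of heart muscle, 12 of 15 had a probe and 6 passed the filter. NPPB, the B-type natriuretic peptide gene, was the 1 gene called, at least 1.23-fold higher at 1 week and at least 1.02-fold at 2 weeks (limma adjusted p = 8.38e-05 and 0.000272). NPPB was undetected in ESCs and passed the filter through EB arrays, so it had to be higher. NPPA, the atrial peptide gene, was undetected on all arrays. Of 9 energy supply genes, 4 passed the filter and none was called.

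Several members are also used by other muscle, MYL4 and ACTC1 in fetal skeletal muscle and SLN in skeletal muscle. Among 20 skeletal muscle markers 19 had a probe and 5 passed the filter, and 26 of their 32 probes were undetected on all 12 arrays, including all those of MYOD1, MYOG and MYF5. None of the 5 was called higher. ACTA1, skeletal actin, was lower at 2 weeks by -1.06 log2 (limma adjusted p = 3.75e-08), while its cardiac paralog ACTC1 was higher. The actin proteins encoded by ACTA1, ACTA2 and ACTC1 are near-identical, and binding of one transcript to another's probe was not tested. Unnormalized intensities were summed over all 32 probes, detected or not. The sums ranged over 8800 to 10700 in 1-week EBs, 6690 to 7950 in 2-week EBs and 9470 to 11500 in ESCs.

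Of 11 smooth muscle markers, 6 passed the filter and 1 was called higher at each week. This was ACTA2, smooth muscle actin, which averaged 11.71 ± 0.25 in 1-week EBs and 11.90 ± 0.12 in 2-week EBs, against 9.30 ± 0.28 in ESCs (5.28-fold and 6.03-fold, limma adjusted p = 1.76e-08 and 4.9e-09). Counts here use the brightest tested probe per gene, and the list's median difference was -0.16 log2 at 1 week and -0.18 at 2 weeks. At 2 weeks the 5 not called differed by 0.90 log2 (CALD1), -0.01 (SMTN), -0.34 (ACTG2), -0.51 (TAGLN) and -0.55 (CNN1). Another CALD1 probe was called lower at 2 weeks, at -1.27 log2 (limma adjusted p = 0.000185), and a further one differed by 0.41. Unnormalized intensities of all 19 probes of the list, detected or not, were summed too. The sums were 21200 to 29800 in 1-week EBs, 18500 to 25400 in 2-week EBs and 16100 to 18900 in ESCs. Of 10 endothelial markers, 8 passed the filter, with 4 higher at 1 week (CDH5, ESAM, TEK and VWF) and 5 at 2 weeks (these and CLDN5). CDH5, ESAM and CLDN5 were undetected in ESCs and passed through EB arrays, so they had to be higher, and ESAM was undetected in 1-week EBs too. All 12 probes of the endothelial list summed to unnormalized intensities of 4210 to 5350 and 4880 to 6770, against 1990 to 2560 in ESCs. The part of smooth muscle and endothelial cells in the levels of the sarcomere genes was not tested.

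Of 11 pluripotency markers, 10 had a probe and passed, with 3 lower at each week (DPPA2, PRDM14 and UTF1) and 7 not called. By the brightest probe per gene, those 7 differed at 1 week by -0.48 (ZFP42) to -0.04 log2 (LIN28A and DNMT3B). POU5F1 was at -0.18 and NANOG at -0.10 in that comparison. At 2 weeks the 7 ran from -0.82 (NANOG) to 0 (SOX2). The list's median difference was -0.16 at 1 week and -0.68 at 2 weeks. The unnormalized intensities of all 18 probes of the list were summed. The sum was 144000 to 179000 in 1-week EBs, 94400 to 141000 in 2-week EBs and 157000 to 189000 in ESCs. TNNI3 differed from ESCs by -1.68 log2 at 1 week and -1.62 at 2 weeks. The part of undifferentiated cells in the TNNI3 level was not tested.

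Genes whose pattern over the 12 arrays was most like a member were found by the root mean square difference of log2 values, each probe centred on its own mean. The nearest genes to SLN were PITX1 (0.21 log2) and POSTN (0.28). MYL4 stood nearest to HAPLN1 (0.18) and HOXB8 (0.20), and MYL7 to MEIS1 (0.21) and WLS (0.22). The first ACTC1 probe was nearest to CPED1 (0.19) and MEIS1 (0.19), and TNNI3 to H4C8 (0.15) and NOXO1 (0.16). PITX1, a homeobox factor of the hindlimb and pituitary, was at least 37.0-fold higher at 1 week and at least 59.8-fold at 2 weeks than in ESCs. Probes of small range, such as those of TNNC1 and ACTN2, are close to many others, and theirs were SUMO3 (0.08) and UHRF1 (0.09) and ZFP1 (0.07) and CCT7 (0.08).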

How the data were processed

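Column-purified total RNA, checked on a Bioanalyser, was labelled with Cy3 for 12 arrays, per the labels' protocols. The deposited signal table held a linear intensity per probe and array and a detection p-value, per the file headers, with p-values in steps of 1 in 759. The authors also deposited a series matrix of log2 values, with a median of 6.68 in all 12 columns and no gene centring. Its scanner and normalization steps are not given in the sources used here, and it served as an alternative only. Set against the log2 intensities, its columns correlated at 0.998 or more, except 0.938 for the second 2-week array.

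Intensities were corrected and normalized with neqc of limma 3.58.1 in R 4.3.3 (background from detection p-values, offset 16, quantiles, log2). Probes detected at p under 0.01 on at least 4 of 12 arrays were kept, 15921 of 48803. Each comparison was fitted with lmFit and eBayes on all arrays, two-sided, with Benjamini-Hochberg adjustment over all kept probes. Quantiles remove shifts of most transcripts, and the offset shrinks differences of dim probes. Only the fit and the calls were tested on simulated data, drawn with noise independent between arrays. The background, quantile and filter steps and the sets of arrays were outside that test. Of all probes, 27578 had 1 gene symbol, 13 several and 21212 are unnamed here.

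The members and gene lists were chosen with earlier results of these data known. Text names come from a fixed rule: all member probes, up to 4 called genes per list by 2-week difference, and 9 heart markers. TTN, TNNT1, the skeletal regulators and the list members named beside a count were chosen after their values were seen.

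Same-numbered arrays of 1-week EBs and ESCs deviated together (r = 0.14 to 0.25, over 0.1 for each of the 4 numbers), following the split of arrays 1 and 2 from 3 and 4. In the 2-week comparisons r was -0.09 to 0.15. Alternatives changed the scaling, background, filter, probe choice, array sets and arrays used. The number of arrays limits the precision.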

Additional observations from a re-analysis of the deposited data

Results flagged for a closer look

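The difference of TNNC1 and SLN from ESCs was larger at 2 weeks than at 1 week as reported, but neither passed in every setting. The change was 0.29 log2 for TNNC1 (limma adjusted p = 0.0476, higher on all 4 of the 2-week arrays than on any 1-week array) and 0.51 for SLN (adjusted p = 0.0202, with overlapping groups). Both are under 2-fold. The TNNC1 adjusted p reached 0.109 with 1 array left out and 0.293 over all settings. The SLN difference was 0.12 on arrays 1 and 2 and -0.04 in the series matrix.

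In 33 groups of 4 arrays, 2 held an array far from the others, and chance alone marks about 1 in 20. The second MYL4 probe read 7.00 on the second 1-week array, where the nearest other array of the group read 7.36. ACTC1 read 10.34 on the fourth ESC array and 10.30 on the nearest, in a group with a narrow spread.

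MYL3 was detected on 1 array, of 2-week EBs, and was outside the test.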

How the results depend on the processing

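At 1 week and at 2 weeks, 6 member probes were called against ESCs (5 higher and 1 lower), except 7 (6 higher and 1 lower) without a detection filter or with the looser filters, which keep MYL3, and 5 (4 higher and 1 lower) with 1 probe per gene. Between the weeks 0 were called in each setting. Over 25 settings SLN differed from ESCs by 5.49 to 7.11 log2 at 1 week and 5.69 to 7.93 at 2 weeks, and TNNI3 by -1.76 to -1.45 and -2.03 to -1.41. The replicate block left the counts of called probes at 1409, 2240 and 204 and changed no call. Leaving out each array in turn gave 1351 to 1534, 2153 to 2372 and 201 to 221 called probes.

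Without background correction 826, 1395 and 90 probes were called at 1 week, at 2 weeks and between the weeks. The series matrix called 885 at 1 week and 107 between the weeks, and 915 and 105 without the second 2-week array, a setting added after seeing the data. Median scaling moved the median of all probes by 0.13 log2 at 1 week and -0.12 between the weeks, and the share of calls that were higher to 74.9% (62.0% as reported) and 44.7% (61.8%). Without background correction that last share was 73.3%.

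Signs turned for small differences. ACTN2 differed from ESCs by 0.12 at 1 week with median scaling, by 0.00 without the third ESC array, and by 0.06 at 2 weeks in the series matrix. Between the weeks the series matrix gave -0.14 and -0.06 for the MYL4 probes, -0.57 for TNNI3, 0.01 for ACTC1, 0.14 for ACTN2 and -0.04 for SLN. In that table the second 2-week array read 10.25 for SLN, where the other 2-week arrays read 12.67 to 13.07, and without it SLN differed by 0.63 and TNNI3 by 0.05. Median scaling gave -0.02 for MYL7 and -0.04 for TNNI3. Arrays 1 and 2 alone gave -0.03 for the second MYL4 probe, -0.27 for MYL7 and 0.04 for ACTN2, and arrays 3 and 4 gave -0.07 for TNNI3 and 0.07 for ACTC1. With 1 array left out, ACTN2 at 1 week ran from -0.15 to 0.00, and between the weeks MYL7 ran from -0.02 to 0.25 and TNNI3 from -0.05 to 0.15. Leaving out the fourth 2-week array gave -0.02 for MYL7, the second 1-week array -0.05 for TNNI3 and the third 2-week array 0.00 for TNNI3. The cause of these turns was not tested. The SLN second-week adjusted p ran from 4.73e-05 to 0.968 and that of TNNC1 from 0.0201 to 0.293. Levels under the floor give bounds only.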
